A study of Mus musculus with 4 samples.

Results

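Arterial and venous zonation genes are genes by which the endothelium of arteries and of veins can be told apart. The 8 genes described here form a list of names: 6 arterial genes (Gja4, Gja5, Bmx, Fbln5, Mgp and Alpl) and 2 venous genes (Nr2f2 and Vwf), out of 20194 genes listed in the series. All 8 are listed at both stages. RNA was sequenced from mouse brain endothelial cells of strain C57BL/6 at embryonic day 15 (E15) and embryonic day 18 (E18). The groups are WT, for which no further allele is given, and UCP2f/f;Tie2-cre, called the knockout here, in which Cre driven by the Tie2 promoter acts on a floxed Ucp2 gene. That promoter is active in endothelium and also in most blood cells. There are 4 groups of 1 library each, with 15542930 reads (WT) and 16328300 reads (knockout) in genes at E15, and 19075407 and 21992660 at E18. The series' design text speaks of triplicates; whether a library pools embryos, and how the cells were isolated, is not stated. With 1 library per group no difference has a replicate check, and a ratio below compares libraries, not conditions.

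Endothelial cells change along the vascular tree. Arterial identity is set by VEGF and Notch signalling, together with SoxF transcription factors, and shows in connexins and elastic matrix genes. Venous identity rests on the nuclear receptor COUP-TFII, the product of Nr2f2, which represses the arterial programme. In the brain the arterial genes mark mainly arteries and arterioles, a small part of the endothelium, though Gja4 and Alpl are not limited to them. The share of capillary cells in these preparations was not measured. In bulk RNA, fewer cells of a type and less RNA per cell cannot be told apart.

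Pan-endothelial markers were present throughout: 12 of 12 were detected in each library, with a summed level of 18329 to 21399 counts per 1000000 library reads (CPM). Transcripts of other cells were present as well. Summed levels ranged from 5081 to 11999 CPM for 10 pericyte markers, from 303 to 494 for smooth muscle, from 158 to 331 for fibroblasts, from 31.6 to 611 for microglia and macrophages, and from 48 to 115 for neurons. Platelet markers summed to 12.4 to 47.3 CPM, neutrophil markers to 5.15 to 41.3 and choroid plexus markers to 170 to 244. Some sums differed within the genotype pair at both stages. At E18 neutrophil markers stood at 10.5 CPM in WT and 41.3 in the knockout, and microglia markers at 31.6 and 60.1. Of those compared, 4 of 4 and 4 of 8 were called higher (past 2-fold, as defined below), beside 2.88% of all genes. At E15 pericyte markers stood at 7587 and 5081, fibroblasts at 331 and 158, microglia at 611 and 295 and neurons at 115 and 59.4. Called lower were 1 of 10, 3 of 6, 3 of 9 and 5 of 8, beside 3.32% of all genes. Of the microglia markers, 1 was called higher. Platelet and neutrophil sums were higher in the E15 knockout, with 0 of 6 and 1 of 2 markers called higher, beside 3.55% of all genes. The choroid plexus sum was higher too (203 CPM in WT and 244 in the knockout), but was mostly Enpp2 (176 and 241). Of the 4 choroid plexus markers compared, 3 had a log2 ratio below 0 and 2 were called lower. Up to 4 defining markers of a list were at 0 in a library, among them Pdgfra (fibroblasts) in both knockout libraries, Dcn (fibroblasts) and Tmem119 (microglia) in WT at E18, and Folr1, Kcne2 and Otx2 (choroid plexus) in the E15 knockout and the E18 WT library. Ucp2 had 4285 reads in the WT and 2666 in the knockout library at E15, and 6696 and 3296 at E18. Transcripts that depend on sex set the E18 libraries apart: Y-linked Ddx3y had 5826 reads in WT and 0 in the knockout, and Xist, which marks X inactivation, had 0 and 547. Genotype and sex cannot be told apart at that stage. Xist stood at 2549 and 2109 reads at E15, for which Ddx3y is not listed.

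The promoters of the arterial genes that were lower together in the E18 knockout library (Gja5, Bmx and Fbln5) are shown with that of Gja4, which was not. Each run is the 250 bases before a start of the gene in RefSeq on GRCm38.p6, written 5′ to 3′ on the gene's strand. The windows are chr3:97032152-97032401 (plus strand) for Gja5, chrX:164258194-164258443 (minus) for Bmx, chr12:101819120-101819369 (minus) for Fbln5 and chr4:127314040-127314289 (minus) for Gja4. Capitals mark letters of TGGGAA (the core bound by RBPJ, the DNA-binding partner of Notch), ACAAAG (SOX factors), AGGTCA (a COUP-TF half-site) or CCACCC (KLF factors), searched on both strands.
Gja5: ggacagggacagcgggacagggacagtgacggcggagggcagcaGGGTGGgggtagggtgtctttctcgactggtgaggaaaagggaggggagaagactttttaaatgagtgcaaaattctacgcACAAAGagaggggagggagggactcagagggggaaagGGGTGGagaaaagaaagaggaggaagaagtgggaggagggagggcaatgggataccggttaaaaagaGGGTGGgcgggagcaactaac
Bmx: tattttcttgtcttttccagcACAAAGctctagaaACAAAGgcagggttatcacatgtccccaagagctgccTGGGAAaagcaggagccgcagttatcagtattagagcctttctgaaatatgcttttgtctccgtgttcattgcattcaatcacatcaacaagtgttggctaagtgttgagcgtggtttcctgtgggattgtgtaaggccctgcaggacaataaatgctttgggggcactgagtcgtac
Fbln5: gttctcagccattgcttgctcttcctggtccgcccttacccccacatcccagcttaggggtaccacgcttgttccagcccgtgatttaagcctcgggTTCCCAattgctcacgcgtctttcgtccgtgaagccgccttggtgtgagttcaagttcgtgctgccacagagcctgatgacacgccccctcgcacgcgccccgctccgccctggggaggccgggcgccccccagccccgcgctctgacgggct
Gja4: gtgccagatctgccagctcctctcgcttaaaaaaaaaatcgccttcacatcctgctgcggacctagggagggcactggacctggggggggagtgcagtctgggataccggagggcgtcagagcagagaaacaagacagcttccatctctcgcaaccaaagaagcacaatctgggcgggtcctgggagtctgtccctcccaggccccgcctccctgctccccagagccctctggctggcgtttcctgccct

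Bmx held an RBPJ core at position -178 and a pair of SOX motifs at -229 and -215, counted from the start. Fbln5 held an RBPJ core at -153; a second RefSeq start of Fbln5, whose window (chr12:101818485-101818734) is not printed, had a KLF motif at -189 and no RBPJ core. Gja5 held a SOX motif at -125 and KLF motifs at -206, -88 and -21. In the Gja4 window none of these letters occurred, and AGGTCA occurred in none of the 4 windows. Among 32851 RefSeq promoter windows of the same length, 21.6% held TGGGAA, 16.5% ACAAAG, 28.1% CCACCC and 14% AGGTCA, so these matches are common and only describe the letters.

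Gja5, Bmx and Fbln5 were each about 2.5 times lower in the knockout than in the WT library at E18, and none of them was called at E15. Gja4, the most abundant arterial gene, differed little between the genotypes at either stage. Both venous genes were slightly lower in the knockout library at E18. Log2 ratios are of CPM, with exact 95% intervals that cover counting error only. A gene is called higher or lower where the ratio of CPM + 1 passes 2-fold. Only genes that reach 1 CPM on either side and 50 reads in the pair are compared. At E18, 3 of the 5 arterial genes that met these minimums were called lower and 0 higher. With a pseudocount of 5 CPM only Fbln5 kept its call (log2 -1.14), while Gja5 and Bmx stood at -0.93 and -0.77. Of all 12349 genes compared, 3.92% were called lower and 2.88% higher. At E15, 0 of these 5 arterial and 0 of the 2 venous genes were called, against 3.55% higher and 3.32% lower of 12633 genes.

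**Figure D1:**
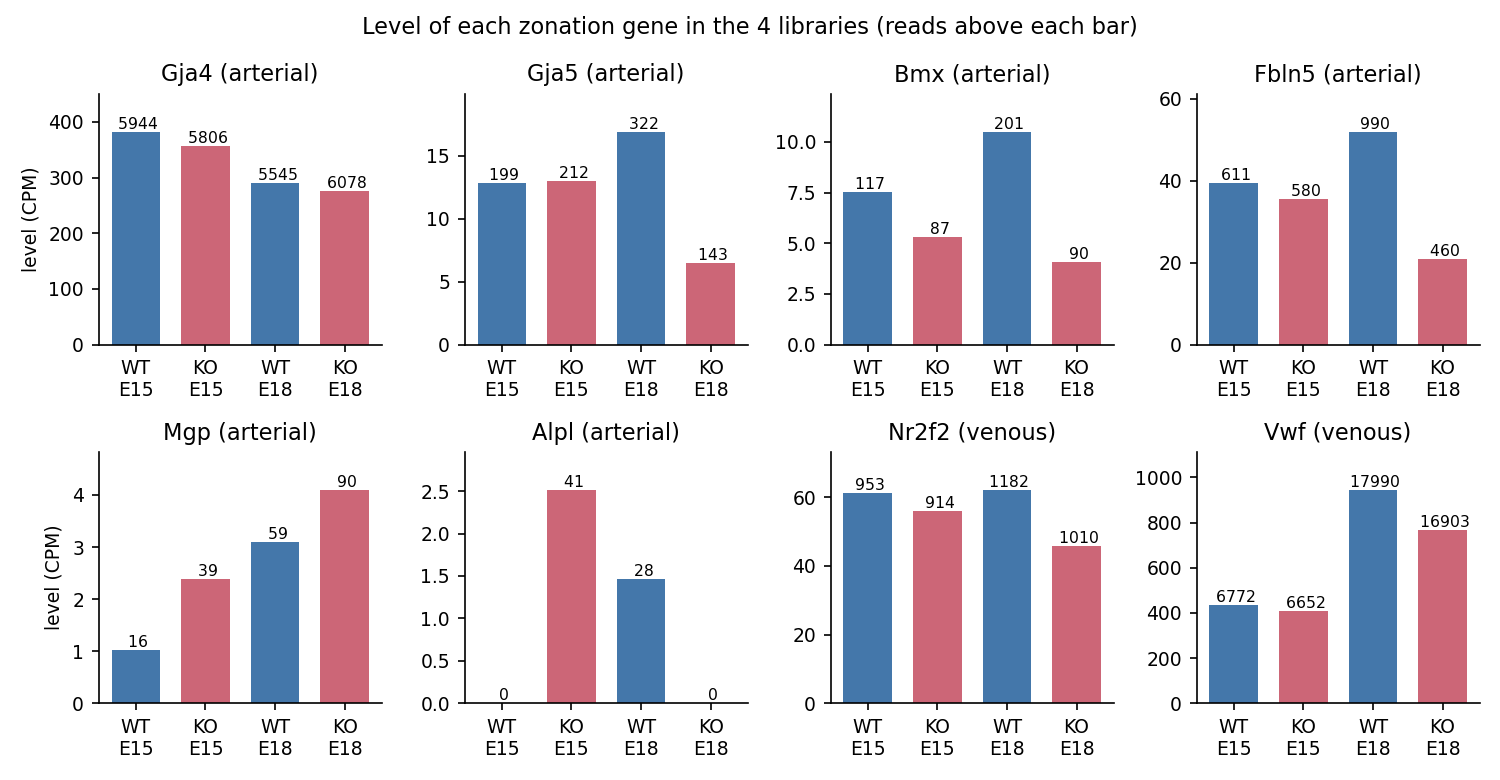
Level of the 8 zonation genes in CPM (linear axes from 0) in the WT (blue) and knockout (KO, red) library at each stage, with the number of reads above each bar and 1 library per bar. Gja5, Bmx and Fbln5 have their highest bar in WT at E18 and their lowest in the knockout at E18, and Vwf is higher in both E18 libraries than in both E15 libraries.

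Gap junctions join neighbouring endothelial cells, and in arteries their channels are built from connexins. Gja5 (ENSMUSG00000057123, chr3:96904693-97077416, plus strand) encodes connexin 40, a classic arterial marker. It had 199 reads in WT and 212 in the knockout at E15, and 322 and 143 at E18 (12.8, 13, 16.9 and 6.5 CPM). The E15 libraries lay together, WT at E18 stood above them and the knockout at E18 below them. The E18 log2 ratio was -1.38 (interval -1.67 to -1.09), while that at E15 was 0.02 (interval -0.27 to 0.31). Among 3380 genes with a mean level within 2-fold of that of Gja5, 4.26% were called lower at E18.

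Gja4 (ENSMUSG00000050234, chr4:127311421-127314039, minus strand) encodes connexin 37, which is enriched in, but not limited to, arterial endothelium. Its reads were 5944 and 5806 at E15 and 5545 and 6078 at E18 (382, 356, 291 and 276 CPM). The genotype ratios were close to 0, at -0.10 (interval -0.16 to -0.05) for E15 and -0.07 (interval -0.13 to -0.02) for E18. For each Gja5 read there were 29.9 Gja4 reads in WT and 27.4 in the knockout at E15, and 17.2 and 42.5 at E18. This ratio of the connexin pair was thus lowest in the E18 WT library and highest in the E18 knockout library.

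Bmx (ENSMUSG00000031377, chrX:164192842-164258193, minus strand) encodes a cytoplasmic tyrosine kinase of the Tec family found in arterial endothelium. It had 117 reads in WT and 87 in the knockout at E15, and 201 and 90 at E18 (7.53, 5.33, 10.5 and 4.09 CPM). Both knockout libraries were below both WT libraries. The log2 ratio was -0.50 at E15 (interval -0.92 to -0.09) and -1.36 at E18 (interval -1.74 to -0.999). Bmx is X-linked, and the E18 libraries differ in Xist and Y-linked reads as given above; the part of this in the Bmx ratio was not tested. Genes of like level were called lower more often than all genes, 6.66% of 2943.

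Fbln5 (ENSMUSG00000021186, chr12:101746565-101819055, minus strand) encodes fibulin 5, a matrix protein needed to assemble elastic fibres, made by arterial endothelium and also by smooth muscle and fibroblasts. The libraries held 611 and 580 reads at E15 and 990 and 460 at E18 (39.3, 35.5, 51.9 and 20.9 CPM). The E18 ratio was -1.31 (interval -1.47 to -1.15), the most precise of the 3 called, and that at E15 was -0.15 (interval -0.31 to 0.02). At the level of Fbln5 a 2-fold difference was rarer: 0.802% of 3990 genes were called lower. At E18 the summed smooth muscle markers stood at 402 CPM in WT and 494 in the knockout, pericyte markers at 9625 and 11999, and fibroblast markers at 234 in both. Single markers went both ways: Acta2 of smooth muscle stood at 3.56 CPM in WT and 1.5 in the knockout, and 4 of the 6 fibroblast markers compared were below 0 (median log2 -0.18). Their part in the Fbln5 ratio was not tested.

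Mgp (ENSMUSG00000030218, chr6:136872435-136875823, minus strand) encodes matrix Gla protein, an inhibitor of calcification in the arterial wall. With 16 and 39 reads at E15 and 59 and 90 at E18 (1.03, 2.39, 3.09 and 4.09 CPM) it was weakly expressed. At both stages the knockout library was the higher one, opposite to Gja5, Bmx and Fbln5 at E18. The log2 ratio was 1.21 at E15 (interval 0.34 to 2.15) and 0.40 at E18 (interval -0.09 to 0.90), neither called on the scale with 1 CPM added.

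Alpl (ENSMUSG00000028766, chr4:137741733-137796384, minus strand) encodes tissue-nonspecific alkaline phosphatase, whose activity stains arterioles and capillaries of the brain. It had 0 reads in WT and 41 in the knockout at E15, and 28 and 0 at E18. Against a floor of 3 reads in the empty library, it was at least 13-fold higher in the knockout at E15 and at least 10.8-fold lower at E18. It did not reach 50 reads over 2 libraries and so enters no count of genes called in a pair. The libraries with reads are of opposite genotype at the 2 stages.

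Of the venous genes, Nr2f2 (ENSMUSG00000030551, chr7:70351944-70366735, minus strand) had 953 and 914 reads at E15 and 1182 and 1010 at E18 (61.3, 56, 62 and 45.9 CPM). The knockout library at E18 stood below the other libraries. Its log2 ratio was -0.13 at E15 (interval -0.26 to 0.00) and -0.43 at E18 (interval -0.56 to -0.31). Vwf (ENSMUSG00000001930, chr6:125546774-125686679, plus strand) encodes von Willebrand factor, which is stored in endothelial granules, binds platelets and is richest in veins and larger vessels. It had 6772 and 6652 reads at E15 and 17990 and 16903 at E18 (436, 407, 943 and 769 CPM). Its ratio was -0.10 at E15 (interval -0.15 to -0.05) and -0.29 at E18 (interval -0.33 to -0.26). Neither venous gene was called at either stage. When genes were split into 10 bins by exon length, the bin of Vwf, the longest, had a median E18 ratio of -0.15 on the scale with 1 CPM added. This median was -0.02 in the bin of Gja5, -0.05 in that of Fbln5 and 0.09 in that of Bmx.

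**Figure D2:**
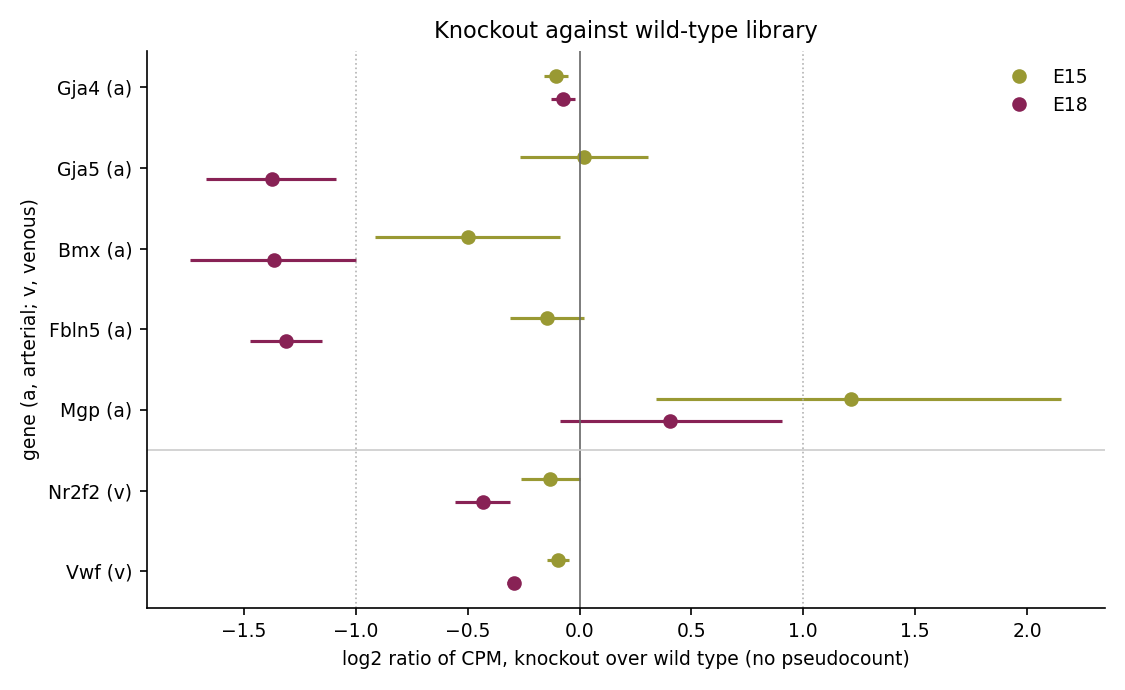
Log2 ratio of CPM, knockout over WT library, for 7 zonation genes at E15 (olive) and E18 (purple), with 1 library on each side. Points are ratios without a pseudocount, lines exact 95% intervals for counting error, dotted lines 2-fold; Alpl is left out because 2 of its libraries have 0 reads. Gja5, Bmx and Fbln5 lie to the left of -1 at E18, whereas Gja4 and both venous genes lie between -0.5 and 0 at both stages.

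The genotype ratio itself differed between the stages for some of the genes. The E18 ratio minus the E15 ratio was -1.40 for Gja5 (interval -1.80 to -0.998), -1.17 for Fbln5 (interval -1.39 to -0.94) and -0.87 for Bmx (interval -1.40 to -0.33). For Gja4 it was 0.03 (interval -0.04 to 0.11), for Nr2f2 -0.30 (interval -0.48 to -0.12) and for Vwf -0.20 (interval -0.26 to -0.14). The interval of Mgp, -1.77 to 0.15, held 0. These intervals are normal approximations from the 4 read counts and do not hold the variation between embryos.

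The stage comparisons use the same 4 counts per gene as the genotype comparisons and are no separate evidence. Under scaling to library totals the median gene stood at -0.11 in the WT pair and at -0.10 in the knockout pair, so stage ratios are read against these values. The stage pairs also differ in Xist, which stood at 164 CPM at E15 and 0 at E18 in WT, and at 129 and 24.9 in the knockout. Summed microglia markers stood at 611 CPM at E15 and 31.6 at E18 in WT, and at 295 and 60.1 in the knockout. In each pair 8 of 8 compared were called lower, beside 7.58% and 10.9% of all genes. Pericyte sums were higher at E18, at 7587 and 9625 in WT and 5081 and 11999 in the knockout. The part of sex and of other cells in the stage ratios was not tested. In WT, Gja5, Bmx and Fbln5 were higher at E18 than at E15, with log2 ratios of 0.40 (interval 0.14 to 0.66), 0.49 (interval 0.15 to 0.83) and 0.40 (interval 0.25 to 0.55). In the knockout pair they were -0.998 (interval -1.31 to -0.69), -0.38 (interval -0.82 to 0.06) and -0.76 (interval -0.94 to -0.59). Gja4 was lower at E18 by a like amount in both pairs, -0.40 (interval -0.45 to -0.34) and -0.36 (interval -0.42 to -0.31). Mgp was higher at E18 in both, at 1.59 (interval 0.77 to 2.48) and 0.78 (interval 0.22 to 1.36). In the WT pair, 2 of the 7 genes compared, Mgp and Vwf, were called higher and 0 lower, where 3.08% of 12515 genes were called higher and 7.58% lower. Scaled to the summed pan-endothelial markers instead, Mgp stood at 0.89 and Vwf at 0.91 on the log2 scale with 1 CPM added, both short of 2-fold; Mgp also fell short with a pseudocount of 5 CPM (0.42). In the knockout pair 0 of 7 were called, where 4.34% of 12465 genes were called higher and 10.9% lower.

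Vwf was about 2 times higher at E18 in both genotypes. Its log2 ratio of E18 over E15 was 1.11 in WT (interval 1.07 to 1.16) and 0.92 in the knockout (interval 0.88 to 0.96). The latter was not called under scaling to library totals, but was called with edgeR's TMM factors, at 1.03. Nr2f2, the other venous gene, stood at 0.01 (interval -0.11 to 0.14) in WT (-0.18 with 1 CPM added under the pan-endothelial scaling) and -0.29 (interval -0.42 to -0.16) in the knockout. Vwf is also made by megakaryocytes. Of the 10 platelet markers, 10 were listed at E15 and 9 at E18. Their sums were lower at E18 (16.3 and 12.4 CPM in WT and knockout) than at E15 (43.1 and 47.3), and Gp1ba, Gp5 and Treml1 were at 0 in the E18 knockout library. Their part in the Vwf ratio was not tested.

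**Figure D3:**
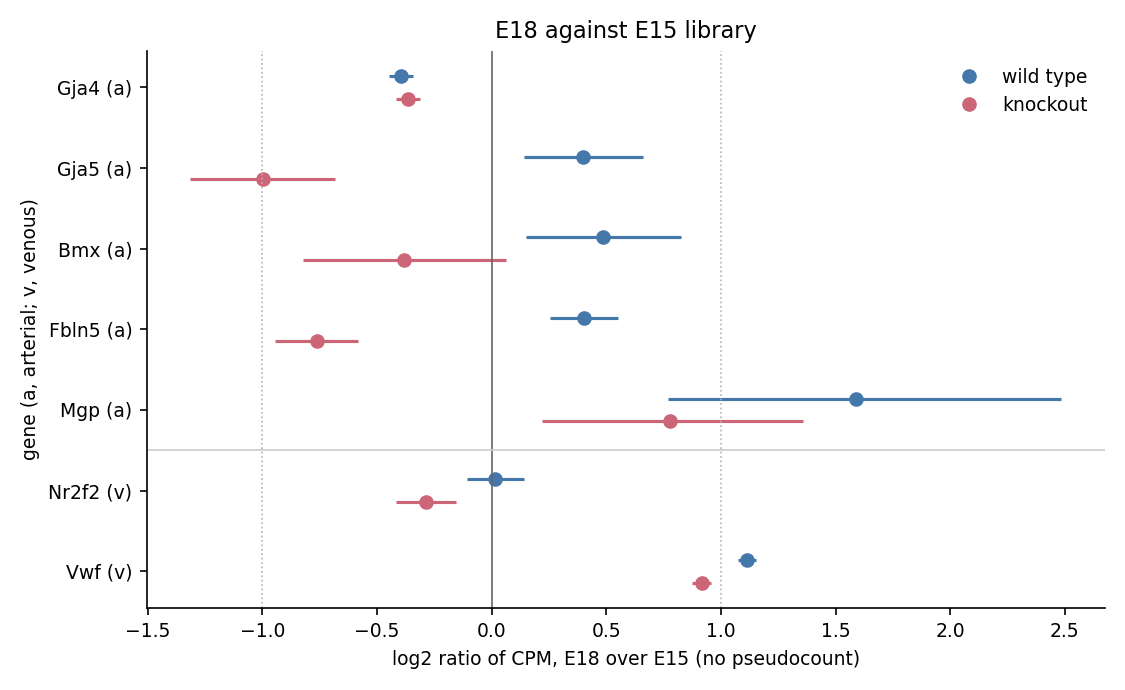
Log2 ratio of CPM, E18 over E15 library, for 7 zonation genes in WT (blue) and knockout (red), with 1 library on each side. Points are ratios without a pseudocount, lines exact 95% intervals for counting error and dotted lines 2-fold. The WT and knockout points of Gja5, Bmx and Fbln5 lie on opposite sides of 0, while those of Gja4 (about -0.4) and Vwf (near 1) lie together.

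An additive test over the 4 libraries is the only fit holding both stage and genotype as terms that leaves a residual degree of freedom. Each term's pair of libraries serves as its replicates, so an effect confined to 1 stage or genotype counts as noise. In this test (edgeR's quasi-likelihood test, Benjamini-Hochberg adjustment over 13416 genes) Vwf rose with stage by 1.13 on the log2 scale (adjusted p = 0.0175) and was the only one of the 8 zonation genes called for stage. Both E18 libraries were above both E15 libraries. Of all genes, 0.894% were called higher and 0.44% lower at E18. Over the alternative fits, which included DESeq2, the log2 value of Vwf ran from 1.01 to 1.13 and its adjusted p from 3.84e-13 to 0.0343. For genotype, 0 of the 8 zonation genes were called by edgeR or by DESeq2, where 0.0224% of all genes were called higher by edgeR and 0% lower. At an unadjusted p under 0.05, 1 of the 8 passed in either tool, Fbln5 (log2 -0.73, unadjusted p = 0.0471, adjusted p = 0.964 in edgeR). With RLE factors, library totals or no filter its unadjusted p was 0.0567, 0.0508 and 0.0525, above that limit. That count stands beside 338 genes (2.52%) with an unadjusted p under 0.05 in the same direction. Gja5 and Bmx had genotype values of -0.68 and -0.94 (edgeR, adjusted p = 0.99 for each).

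Levels of different genes can be compared only per length, here as CPM per kilobase of annotated exons. Gja4 was the highest and Vwf the next in every library, at 227 and 27.1 CPM per kilobase in WT at E15, 211 and 25.4 in the knockout at E15, 173 and 58.7 in WT at E18, and 164 and 47.8 in the knockout at E18. In WT at E15 they were followed by Nr2f2 (7.11), Fbln5 (5.69), Bmx (2.43), Gja5 (2.23), Mgp (0.867) and Alpl (0). Bmx and Gja5 there differed by less than their counting error. In WT at E18 Fbln5 (7.51) and Nr2f2 (7.18) were level within counting error, as were Bmx (3.41) with Gja5 (2.94) and Gja5 with Mgp (2.61). In the knockout at E18 Nr2f2 (5.32) stood above Mgp (3.45) and Fbln5 (3.03), which were level, and Bmx (1.32) and Gja5 (1.13) were level below them. In the knockout at E15 the order was that of WT down to Fbln5 (5.14), and Gja5 (2.26), Mgp (2.01) and Bmx (1.72) followed, each level with its neighbour.

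As a summary of each library, the mean log2 level (of CPM + 1) of the arterial genes minus that of the venous genes was -3.73 in WT and -3.30 in the knockout at E15, and -3.77 in WT and -4.21 in the knockout at E18. The E18 knockout library thus had the lowest arterial level relative to the venous one, with a difference from WT of -0.43. That rank depends on Vwf: against Nr2f2 alone, WT at E15 was the lowest (-2.33) and the E18 knockout stood at -2.19. The higher value of the E15 knockout rested largely on Alpl: the difference from WT was 0.43 with it and 0.13 without it. At E18 the difference without Alpl was -0.33. Of the 6 arterial genes, Gja4 alone supplied 77.6% to 88.6% of the reads, and the summed arterial level is mostly that gene: it was 443 CPM in WT and 414 in the knockout at E15, and 375 and 312 at E18.

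Of 20 further genes of arterial endothelium 17 were compared. At E18, 12 of them were below 0 and 5 above, and their median log2 ratio was -0.24 beside 0.00 for all genes. Of the 17, 1 was called lower and 0 higher, near the 3.92% and 2.88% of all genes. At E15 the split was 9 below and 8 above, with a median of -0.04 beside -0.01 for all genes. There 0 of the 17 were called, beside 3.55% higher and 3.32% lower of all genes. The gene called at E18 was Edn3, which encodes the vasoactive peptide endothelin 3. It had 76 reads in WT and 83 in the knockout at E15, and 385 and 160 at E18 (ratio of CPM + 1, log2 0.05 and -1.36). Like Gja5, its E15 libraries lay together. Unlike Gja5, its knockout level at E18 (7.28 CPM) was above that at E15 (5.08 CPM).

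Further members of that arterial list were picked after their values were seen. Vegfc, a lymphatic growth factor, had 526 and 376 reads at E15 and 836 and 527 at E18 (log2 -0.54 and -0.84). The matrix gene Fbln2, a relative of Fbln5, stood at -0.18 and -0.72. Of the 6 Notch pathway genes in the list 0 were called at either stage. Of all genes, 3.55% were called higher and 3.32% lower at E15, and 2.88% and 3.92% at E18. Among the ligands, Dll4 stood at -0.16 and -0.35, Jag1 at 0.28 and 0.09, and Jag2 at 0.14 and -0.25. The receptor Notch4 stood at 0.26 and -0.24. The Notch target Hey1 stood at -0.16 and -0.19. Hey2, another target, stood at -0.72 at E15 (28 CPM in WT and 16.5 in the knockout) and at 0.06 at E18. The ephrin Efnb2 stood at 0.04 and -0.25. The transcription factor Sox17 stood at 0.18 and -0.15. Unc5b, a netrin receptor of arterial endothelium, was higher in the knockout at both stages (0.26 and 0.50).

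Of 20 further venous genes, 15 were compared at E18, of which 10 were above 0 and 5 below. Of the 15, 0 were called, beside 2.88% higher and 3.92% lower of all genes. The median of the 15 was 0.08, beside 0.00 for all genes. At E15, 13 were compared, 7 above and 6 below, with a median of 0.11 beside -0.01 for all genes. Of the 13, 1 was called higher and 0 lower, beside 3.55% and 3.32% of all genes. The gene called was Vcam1, an adhesion molecule for leukocytes, with 42 and 107 reads at E15 and 117 and 66 at E18 (log2 1.03 and -0.83). Vcam1 was thus higher in the knockout at E15 and lower at E18. Nr2f2 and Vwf were both below 0 at E18, as were 5 of these 15 genes. Ephb4, the venous receptor that pairs with Efnb2, stood at 0.70 and 0.06, and Aplnr at -0.05 and 0.13 (both picked after their values were seen).

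Among all genes, 3.55% were called higher and 3.32% lower at E15, and 2.88% and 3.92% at E18. Beside these shares, 0 of 12 capillary genes were called in either genotype pair. Their medians were 0.09 at E15 and -0.05 at E18, beside -0.01 and 0.00 for all genes. Their largest ratios were those of Car4, a carbonic anhydrase, at 0.73 for E15 and 0.46 for E18. The amino acid transporter gene Slc7a5 stood at 0.16 and 0.51, the chemokine gene Cxcl12 at -0.19 and -0.44, and Spock2 at -0.29 and 0.42. The transporters Slc22a8 (0.33 and -0.05) and Slc7a1 (0.28 and 0.23), the transferrin receptor Tfrc (-0.30 and -0.24) and Mfsd2a (-0.25 and -0.04) complete the 8 with the largest ratios. In the additive test of stage, 5 of the 12 were called higher at E18 beside Vwf: Slc16a1 (log2 2.11), Car4 (1.69), Cxcl12 (1.33), Spock2 (1.01) and Slc22a8 (0.84), with adjusted p from 0.0148 to 0.0448 in edgeR, where 0.894% of all genes were called higher. Spock2 lost its call with RLE factors, library totals, no filter and DESeq2 (adjusted p from 0.0707 to 0.224), and Slc22a8 with RLE factors, library totals and no filter in edgeR (adjusted p from 0.0634 to 0.0652).

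**Figure D4:**
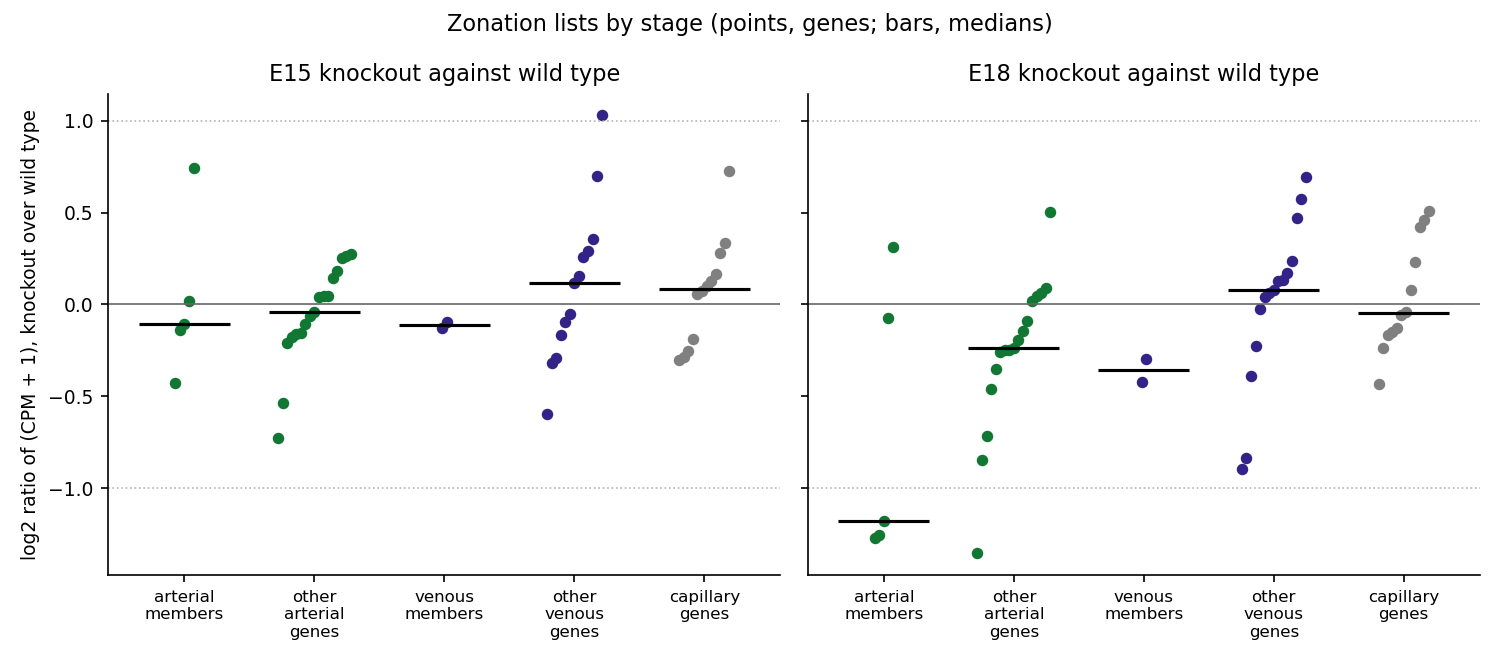
Log2 ratio of CPM + 1, knockout over WT library, for the arterial and venous zonation genes, the further arterial and venous genes and the capillary genes at E15 (left) and E18 (right). Each point is a gene that met the minimums, bars are medians and dotted lines 2-fold. At E18 3 of the 5 arterial genes and 1 of 17 further arterial genes (Edn3) lie below -1, and no venous or capillary gene does.

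For the 6 zonation genes whose log2 level (CPM + 1) spanned at least 1 over the 4 libraries, the gene most like each was found among 10019 genes whose mean reached 5 CPM, by the Euclidean distance of the centred values. With only 4 points and so many genes, a small distance says little, and nearest distances of other genes were not measured. The nearest to Gja5 was Pfkfb2 (98, 108, 155 and 69 reads in WT and knockout at E15 and then E18, distance 0.086), that to Bmx was Prkg1 (132, 99, 220 and 104 reads, distance 0.038), and that to Fbln5 was Ascc3 (634, 633, 1070 and 475 reads, distance 0.069). Ifitm3 was nearest to Vwf (950, 936, 2708 and 2479 reads, distance 0.074), and Lynx1 to Mgp (57, 114, 159 and 235 reads, distance 0.035). For Alpl the nearest was Zfp595 at a distance of 0.412, the largest of these 6 distances.

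No source used here states whether the reads were counted by strand. In the GENCODE M21 annotation, 165 exon bases of Gja5 lie opposite exons of Gpr89, and 643 of Nr2f2 opposite B130024G19Rik, so reads could be shared. Gpr89 had 356, 443, 407 and 451 reads in WT and knockout at E15 and then E18. B130024G19Rik had 75, 55, 38 and 33. The other zonation genes share no exon bases with an annotated gene.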

How the data were processed

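Brain endothelial RNA of 4 libraries (WT and UCP2f/f;Tie2-cre at E15 and E18, 1 each) was analysed from a deposited table for each stage. Stage and genotype came from the labels. The authors deposited raw read counts per Ensembl gene, per the file headers, and CPM values, in which a count of 0 takes the value of 0.5 read. The authors' fold (ratio of knockout over WT CPM), its log2 value and p-values stand beside them as deposited; the test behind the p-values is not stated, and they were not used. Build mm9, HTSeq 0.6.0, TopHat2 2.0.12 and Bowtie2 2.2.3 are named in the submitters' processing notes, with no role given. Start and end of all 8 zonation genes, and of 90.1% of 20143 genes found in GENCODE M21, equal those on GRCm38, so coordinates are read as GRCm38.

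Counts were scaled to library totals. Log2 ratios took a pseudocount of 1 CPM for calls and lists, and none where an interval (exact Clopper-Pearson, 95%, counting error only) is given. Stage comparisons used 16181 genes listed in both tables. The additive test used edgeR 4.0.16 (TMM factors; genes had to reach 1 CPM in 2 or more libraries). Alternatives were RLE or no factors, other filters and pseudocounts, DESeq2 1.42.0, leaving out single genes from the mean levels, and scaling to pan-endothelial markers. The additive test left 1 residual degree of freedom, so its p-values do not measure the spread between embryos. RefSeq promoter windows matched 6 of the 8 genes. From the further lists, every gene past 2-fold in a genotype pair is named, otherwise the 8 with the largest ratio. The zonation genes and lists were chosen with earlier results of these data known. No column of sample values was left unused for want of a sample.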

Additional observations from a re-analysis of the deposited data

Results flagged for a closer look

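With 1 library per group, a difference between effects could not be tested against replicates. The genes below are given because their ratios pointed in opposite directions, each with a counting interval that leaves out 0.

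For the knockout over WT ratio (log2 of CPM + 1), Alpl stood at 1.81 at E15 and at -1.30 at E18, and rests on 41 and 28 reads with an empty library on the other side. Vcam1 stood at 1.03 and -0.83, Spock2 at -0.29 and 0.42, and Slc22a8 at 0.333 and -0.055.

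For the ratio of E18 over E15, the WT and knockout values were 0.37 and -0.90 for Gja5, 0.39 and -0.74 for Fbln5, 1.30 and -1.81 for Alpl, and 0.95 and -0.92 for Vcam1. These come from the same 4 counts per gene as the genotype ratios. None of these differences between effects was tested.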

How the results depend on the processing

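The direction of every zonation gene called in a pair of libraries was the same under each alternative run. With a pseudocount of 5 CPM, Gja5 and Bmx at E18 fell short of 2-fold (log2 -0.93 and -0.77), while Fbln5 stayed past it (-1.14). With TMM factors, a pseudocount of 0.5 CPM and the authors' deposited log2 values these 3 genes stayed past 2-fold at E18. Scaling to the summed pan-endothelial markers, chosen after seeing the data, gave -1.27, -1.19 and -1.29 for Gja5, Bmx and Fbln5 at E18, and put Mgp (0.89) and Vwf (0.91) in the WT stage pair short of 2-fold. It also turned small values, those of Gja5 at E15 (to -0.14) and of Nr2f2 in the WT stage pair (to -0.18). The pan-endothelial sum at E15 was 18329 CPM in WT and 20673 in the knockout, although 9 of the 12 markers were below 0 and 3 above. Among those above, Flt1 stood at 1328 and 2939 CPM and Cldn5 at 6151 and 7583. TMM factors shift stage ratios by 0.12 in both genotypes. No paired analysis was possible because each group holds 1 library. Mgp and Alpl rest on few reads (16 to 90 and 0 to 41 in a library).

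Counts of called genes depend on weak genes, and the cause was not tested. A pseudocount of 5 CPM gave 163 higher and 75 lower at E15, 42 and 82 at E18, 143 and 286 for WT E18 over E15, and 178 and 601 for the knockout. No filter gave 756 lower at E15, and 567 higher and 876 lower at E18. A filter at 5 CPM gave 266 lower at E15, and 211 higher and 275 lower at E18. In the additive test of stage (120 higher, 59 lower), RLE gave 45 and 24, library totals 53 higher, no filter 59 and 33, a filter at 5 CPM 471 and 559, and DESeq2 356 and 360. For genotype (3 higher, 0 lower in the knockout), RLE, library totals and no filter gave 0 higher, a filter at 5 CPM 27 and 5, and DESeq2 35 and 9.

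The arterial minus venous level, in the order WT E15, knockout E15, WT E18 and knockout E18, was -3.98, -3.40, -3.87 and -4.44 with a pseudocount of 0.5 CPM, and -2.95, -2.78, -3.28 and -3.46 with 5 CPM. It was -4.72, -4.21, -4.58 and -5.16 without Gja4, -3.76, -3.27, -3.77 and -4.12 without Gja5 and -3.62, -3.04, -3.65 and -4.00 without Bmx. It was -4.07, -3.55, -4.09 and -4.43 without Fbln5, -3.21, -2.86, -3.35 and -4.00 without Mgp, and -3.00, -2.87, -3.20 and -3.54 without Alpl. It was -5.13, -4.72, -5.73 and -6.23 without Nr2f2 and -2.33, -1.88, -1.82 and -2.19 without Vwf. The E18 knockout value was below that of WT at E18 in each of these settings, and the lowest of the 4 except without Vwf. The change from E15 to E18 in WT, -0.04, turned to 0.11 with a pseudocount of 0.5 CPM, to 0.14 without Gja4 and to 0.51 without Vwf.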
